A study of Homo sapiens with 16 samples.

Results

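Heat shock proteins of the cytosol and of the mitochondrial matrix were followed through a bulk RNA-seq time course of 17β-estradiol (E2), as 10 named genes of the 26364 genes in the count tables. The genes were taken as a list, by symbol: HSPB1 and HSPB8, HSPA8, HSPA4 and HSPH1, DNAJB1, HSP90AA1 and HSP90AB1, and HSPD1 and HSPE1. All 10 had a row in both tables, and all 10 passed the filter on low counts in each cell line. Ishikawa cells derive from a human endometrial adenocarcinoma and T-47D cells from a human breast carcinoma, and both were kept in hormone-deprived medium for 3 days per the labels, where the study's methods state a longer period. They then received 10 nM E2 for 0 (vehicle), 2, 4 or 8 h, so the 0 h cells share the deprivation. The labels list no vehicle libraries for 2, 4 or 8 h, so E2 and any handling that went with it cannot be told apart. Each line and time point had 2 replicates, which gave 16 libraries of poly(A) RNA made with a directional kit, and the authors deposited counts per gene without normalization. The labels do not state that replicates came from separate cultures, so p-values measure only the spread between these samples, which may be technical. The lines came from a cell bank and a supplier and were not authenticated within the study.

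Heat shock proteins are molecular chaperones that hold, fold or release other proteins, and many of their genes are switched on by heat shock factors when unfolded proteins accumulate. HSP70 proteins work in cycles, with J-domain proteins such as DNAJB1 delivering the client and HSP110 proteins such as HSPH1 and HSPA4 exchanging the nucleotide. HSP90 then takes over a set of clients that includes the estrogen receptor and other steroid receptors, small heat shock proteins hold unfolded clients without using ATP, and HSPD1 with its lid HSPE1 forms the folding chamber of the mitochondrial matrix.

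The identity of the lines and their response to E2 were checked first. Libraries held 41177912 to 58918642 counts in Ishikawa cells and 41223813 to 64148903 in T-47D cells. Levels are given as CPM, counts per 1000000 on TMM-scaled library sizes of all 16 libraries, as mean ± SD where a mean is printed. ESR1, the estrogen receptor alpha gene, was at 235 ± 10.1 CPM in Ishikawa and 168 ± 3.42 CPM in T-47D cells at 0 h (n = 2). PAX8, SOX17 and EMX2, genes of the female reproductive tract epithelium, were at 295, 43.3 and 92.8 CPM in Ishikawa cells and at or near 0 in T-47D cells. The reverse held for GATA3, a luminal breast factor, at 1212 CPM in T-47D and 0.0426 CPM in Ishikawa cells. Of 4 markers of other cell types, PTPRC reached at most 0.145 CPM and PECAM1 0.0495 CPM in any of the 16 libraries, while COL1A1 was at 258 CPM in Ishikawa and 89.4 CPM in T-47D cells at 0 h, and COL3A1 at 7.03 and 0.870 CPM. GREB1, a direct E2 target, rose in both lines by 8 h, with a log2 fold change of 1.65 (SE 0.12) in Ishikawa and 2.15 (SE 0.05) in T-47D cells. In Ishikawa cells, the 4 libraries of 4 and 8 h did not sort by time: across all genes, the deviations of 4 h replicate 2 were more like those of 8 h replicate 1 (r = -0.17) than those of its own partner (r = -0.43). The same was not seen in T-47D cells, where the 4 h libraries were most like each other (r = -0.14). Results for 4 and 8 h in Ishikawa cells carry that limit.

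The promoters of these genes are shown because heat shock factors read a short repeated unit, GAA alternating with its inverse TTC. Promoter windows came from RefSeq on GRCh38.p14 and ran from 250 bases before to 50 bases after each annotated start, and all 10 genes matched, with 16 windows. The 250 bases before the start follow for 4 genes that differed in their response to E2, read 5′ to 3′ on the strand of the gene. Capitals mark TTCNNGAA, GAANNTTC and longer runs of the same units, in which the shorter motifs overlap. Those of HSPB8 lie at chr12:119178681-119178930 on the plus strand, those of HSPA8 at chr11:123062137-123062386, of DNAJB1 at chr19:14518398-14518647 and of HSP90AA1 at chr14:102087045-102087294, each on the minus strand.
HSPB8: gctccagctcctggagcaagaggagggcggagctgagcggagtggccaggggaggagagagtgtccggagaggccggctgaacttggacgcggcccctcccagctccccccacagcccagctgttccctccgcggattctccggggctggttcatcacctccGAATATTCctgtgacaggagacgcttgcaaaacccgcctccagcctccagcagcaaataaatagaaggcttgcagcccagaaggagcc
HSPA8: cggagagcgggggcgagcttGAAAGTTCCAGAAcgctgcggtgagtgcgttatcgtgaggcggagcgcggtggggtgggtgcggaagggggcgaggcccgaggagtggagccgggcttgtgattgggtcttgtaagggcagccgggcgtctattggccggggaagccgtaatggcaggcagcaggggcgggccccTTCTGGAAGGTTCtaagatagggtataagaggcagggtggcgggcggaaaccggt
DNAJB1: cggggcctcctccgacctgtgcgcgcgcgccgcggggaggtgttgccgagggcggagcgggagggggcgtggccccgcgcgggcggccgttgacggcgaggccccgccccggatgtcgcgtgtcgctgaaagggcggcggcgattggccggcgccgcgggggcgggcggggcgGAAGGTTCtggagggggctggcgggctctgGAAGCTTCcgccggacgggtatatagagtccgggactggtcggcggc
HSP90AA1: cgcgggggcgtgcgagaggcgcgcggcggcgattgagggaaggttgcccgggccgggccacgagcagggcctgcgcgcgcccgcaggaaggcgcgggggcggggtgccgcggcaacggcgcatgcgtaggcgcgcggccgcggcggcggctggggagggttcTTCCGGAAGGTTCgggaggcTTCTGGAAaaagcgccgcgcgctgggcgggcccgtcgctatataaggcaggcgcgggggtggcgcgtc

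In HSPA8 the runs began 230 and 55 bases before the start, in HSP90AA1 88 and 68 bases, in DNAJB1 77 and 47 bases and in HSPB8 88 bases before it. Either of the 2 unit pairs was present in 8 of the 16 windows and in 7 of the 10 genes, HSPA4, HSPH1 and HSPE1 being those without. Both motifs read the same on either strand, and either was present in 13.5% of all 35116 windows and 16.2% of all 27305 genes. Runs of 3 alternating units, each 2 bases apart and on either strand, were present in a window of HSPA8, HSP90AA1, HSP90AB1 and HSPD1. They were in 0.49% of all windows and 0.608% of all genes. The HSP90AB1 runs lay only in its most downstream window, chr6:44247693-44247992, and its other windows had no match. The HSPD1 run, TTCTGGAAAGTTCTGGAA, had 4 units over 18 bases and began 245 bases before its start. A full estrogen response element, GGTCA and TGACC with 3 bases between them, was in no window of the 10 genes and in 0.057% of all windows. These are matches of letters in short windows and say nothing of binding.

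Before E2, the genes spanned a wide range of levels, and which gene led depended on the line. To compare genes, the 0 h CPM was divided by the length in kilobases of the canonical GENCODE transcript. HSP90AB1 was highest in Ishikawa cells at 993 ± 25.3 CPM per kb, followed by HSPA8 at 897 ± 35.3, HSP90AA1 at 519 ± 56.0 and HSPD1 at 255 ± 9.55 (SD, n = 2). HSPB1 (189 ± 0.577) and DNAJB1 (96.7 ± 0.464) came next, HSPE1 (58.4 ± 7.46) and HSPA4 (56.3 ± 3.31) overlapped between replicates, and HSPH1 (6.71 ± 0.216) and HSPB8 (0.737 ± 0.122) were lowest. T-47D cells had HSPB1 at the top, with 2536 ± 57.4 CPM per kb. Below it stood HSPA8 (1806 ± 9.19), HSP90AA1 (867 ± 14.8), HSP90AB1 (743 ± 3.51), HSPD1 (130 ± 4.55) and DNAJB1 (90.8 ± 1.14). HSPB8 (75.0 ± 0.0623), HSPA4 (53.6 ± 0.539), HSPH1 (22.7 ± 1.04) and HSPE1 (20.6 ± 1.48) closed the order. No neighbours in the T-47D order overlapped between replicates. The place of HSPE1 depended on the length used, since on the 365 bases it does not share with HSPE1-MOB4 it stood at 31.4 ± 2.26 CPM per kb in T-47D cells, above HSPH1, and at 89.0 ± 11.4 in Ishikawa cells, where it overlapped DNAJB1. The 10 genes took 0.761% to 0.996% of all counts in Ishikawa libraries and 1.15% to 1.48% in T-47D libraries. HSPA8 ranked 13th of all genes by CPM in Ishikawa and 5th in T-47D cells at 0 h.

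**Figure D1:**
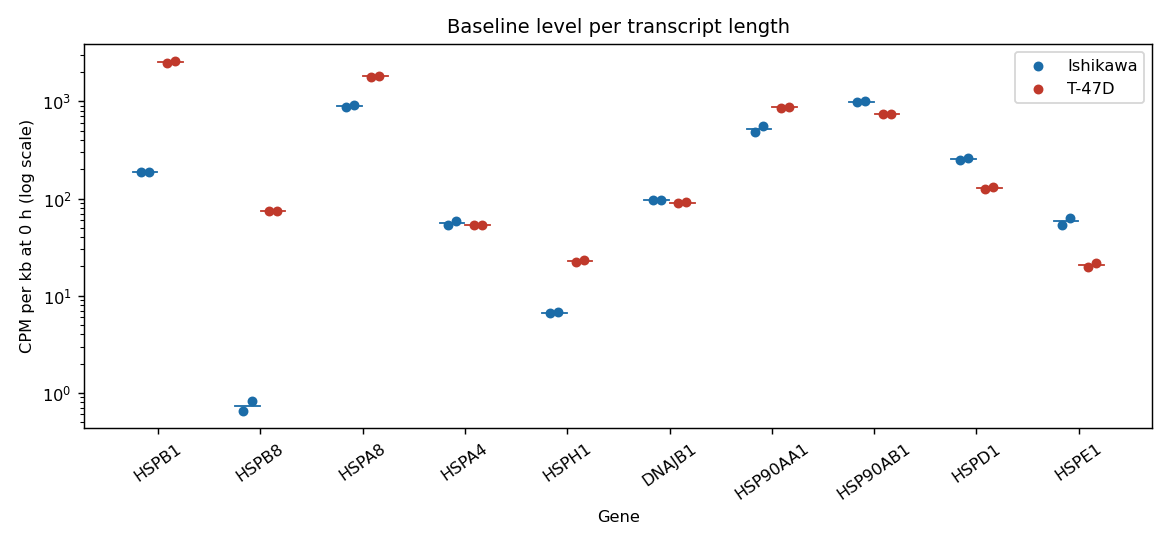
Level of the 10 genes at 0 h in CPM per kb of transcript (log axis), with 1 point per library and a short line at the mean of the 2 replicates, Ishikawa in blue and T-47D in red. HSPB8 and HSPB1 are far apart between the lines, from 0.737 to 75.0 and from 189 to 2536 CPM per kb, while DNAJB1 and HSPA4 are close.

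Between the lines at 0 h, 8 of the 10 genes differed, 5 of them higher in T-47D and 3 higher in Ishikawa cells. This share stands against 81.9% of the 17090 genes tested, so it is near the background (edgeR's quasi-likelihood test over all 16 libraries with Benjamini-Hochberg adjustment, adjusted p under 0.05). The small heat shock proteins differed most. HSPB8, which works with BAG3 to route misfolded clients to autophagy, was 6.67 higher in T-47D cells on the log2 scale (SE 0.15, adjusted p = 4.17e-19). HSPB1, the main small heat shock protein of many epithelial cells, was 3.74 higher (SE 0.05, adjusted p = 1.02e-22). HSPH1 was 1.76 higher, HSPA8 1.01 higher and HSP90AA1 0.74 higher. The inducible and constitutive HSP90 genes went opposite ways, since HSP90AB1 had a log2 difference of -0.42 (SE 0.05, adjusted p = 1.62e-07). Both mitochondrial genes were lower in T-47D cells, HSPD1 by a log2 difference of -0.97 (SE 0.06) and HSPE1 by -1.50 (SE 0.11). DNAJB1 (-0.09, adjusted p = 0.0707) and HSPA4 (-0.07, adjusted p = 0.212) did not pass, and leaving out Ishikawa 2 h replicate 2 or computing the scaling without the 10 genes brought DNAJB1 past the threshold. Line and handling of the line cannot be told apart in this comparison, and in bulk RNA neither can fewer expressing cells and less RNA per cell.

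After E2, 8 of the 10 genes rose in T-47D cells and all 10 in Ishikawa cells by 8 h, all but HSPB8 by 0.61 or less on the log2 scale. In T-47D cells the genes called higher than at 0 h numbered 4 of 10 after 2 h and 8 after both 4 and 8 h, against 4.9%, 11.1% and 15.4% of the 15594 genes tested. The corresponding counts in Ishikawa cells were 1, 8 and 10, against 2.61%, 7.66% and 12% of 15787 genes. Because most of the 10 are abundant, the same shares were taken over genes with a mean of at least 100 CPM before TMM scaling. At 2, 4 and 8 h, 6.13%, 14% and 21.7% of 2463 such genes rose in T-47D cells. In Ishikawa cells the shares were 4.04%, 13% and 21.3% of 2453 genes. HSPB8, HSPH1 and HSPE1 in Ishikawa and HSPE1 in T-47D cells were below that level but are counted among the 10. The median log2 fold change of the 10 genes at 2, 4 and 8 h was 0.13, 0.25 and 0.38 in T-47D and 0.08, 0.30 and 0.27 in Ishikawa cells, beside a median between -0.01 and 0.01 for all genes tested. Calls in Ishikawa cells leaned on a few libraries, both for the 10 genes and over all genes tested. Fewer of either were called without 0 h replicate 2, 4 h replicate 1 (at 4 h) or 8 h replicate 2 (at 8 h). The median of the 10 genes was 0.25 at 4 h and 0.25 at 8 h without 0 h replicate 2. It was 0.20 at 4 h without 4 h replicate 1 and 0.27 at 8 h without 8 h replicate 2. In T-47D cells the calls at 8 h held whichever library was left out. Medians there ranged from 0.21 to 0.28 at 4 h and from 0.34 to 0.43 at 8 h. With the 4 and 8 h libraries of Ishikawa cells taken as 1 group, which does not use the division between them, all 10 genes were called against 0 h. In that fit 4055 of all 15787 genes tested were called, in either direction. Collagen genes moved over the same hours. COL1A1 had a log2 fold change of -0.56 (SE 0.10, adjusted p = 0.00161) at 4 h and -0.60 (SE 0.10, adjusted p = 0.000823) at 8 h in Ishikawa cells, where COL3A1 had -0.81 and -0.71, and COL1A1 had -0.25 (SE 0.06, adjusted p = 0.0051) at 8 h in T-47D cells. The 4 markers of other cell types summed to 253 and 276 CPM in the 0 h libraries and 164 and 186 CPM in the 8 h libraries of Ishikawa cells. Nearly all of this sum was COL1A1, with means of 258 and 170 CPM. In T-47D cells the sum was 87.3 and 93.5 CPM at 0 h and 72.5 and 79.8 CPM at 8 h, where COL1A1 had means of 89.4 and 75.5 CPM. Which cells expressed COL1A1 was not tested, nor was a part of the sum in the rise of the heat shock genes.

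**Figure D2:**
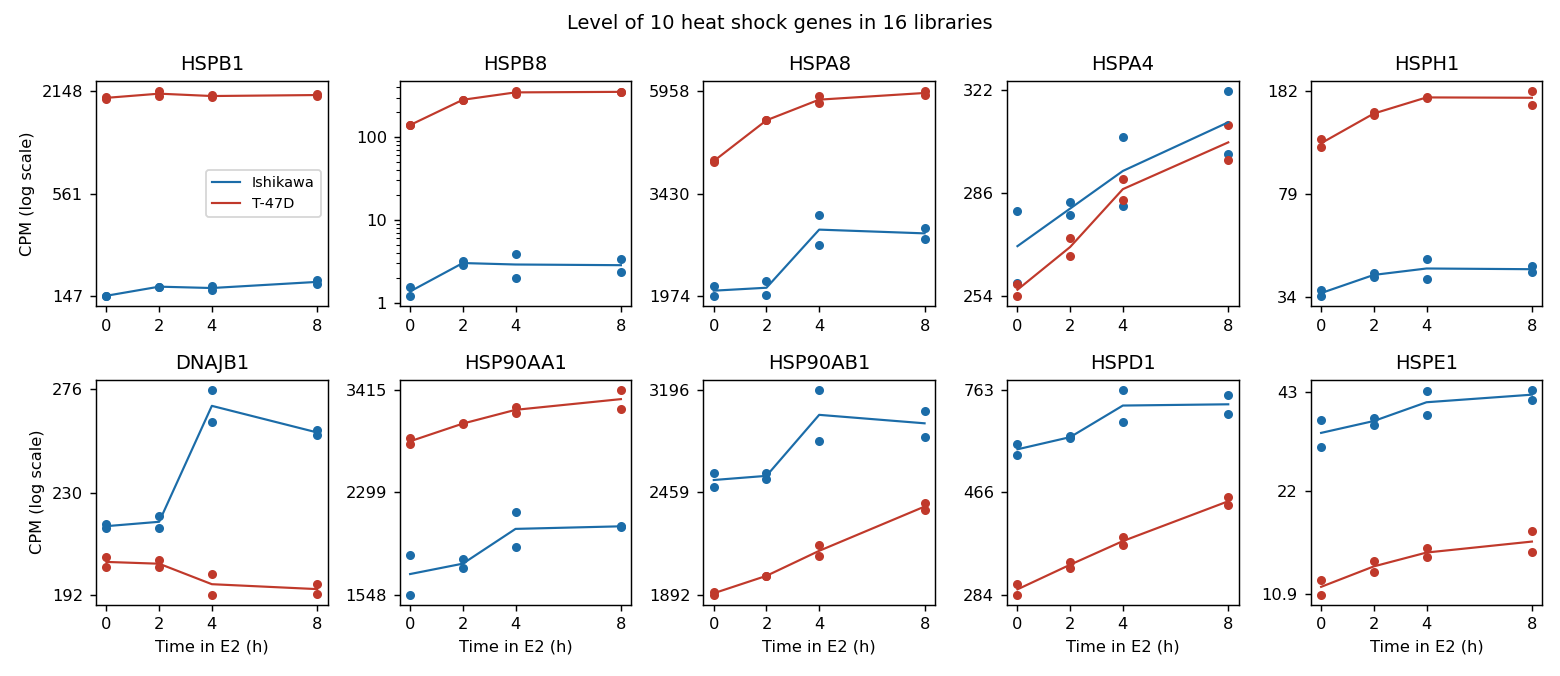
CPM of each gene (log axis, scaled to each panel) against hours in E2, with 1 point per library and lines through the means of the 2 replicates, Ishikawa in blue and T-47D in red. T-47D levels of HSPA8 and HSPD1 climb at each time point, from 4088 to 5904 and from 291 to 446 CPM on average, while DNAJB1 steps up in Ishikawa cells alone, from 217 to 268 CPM by 4 h.

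**Figure D3:**
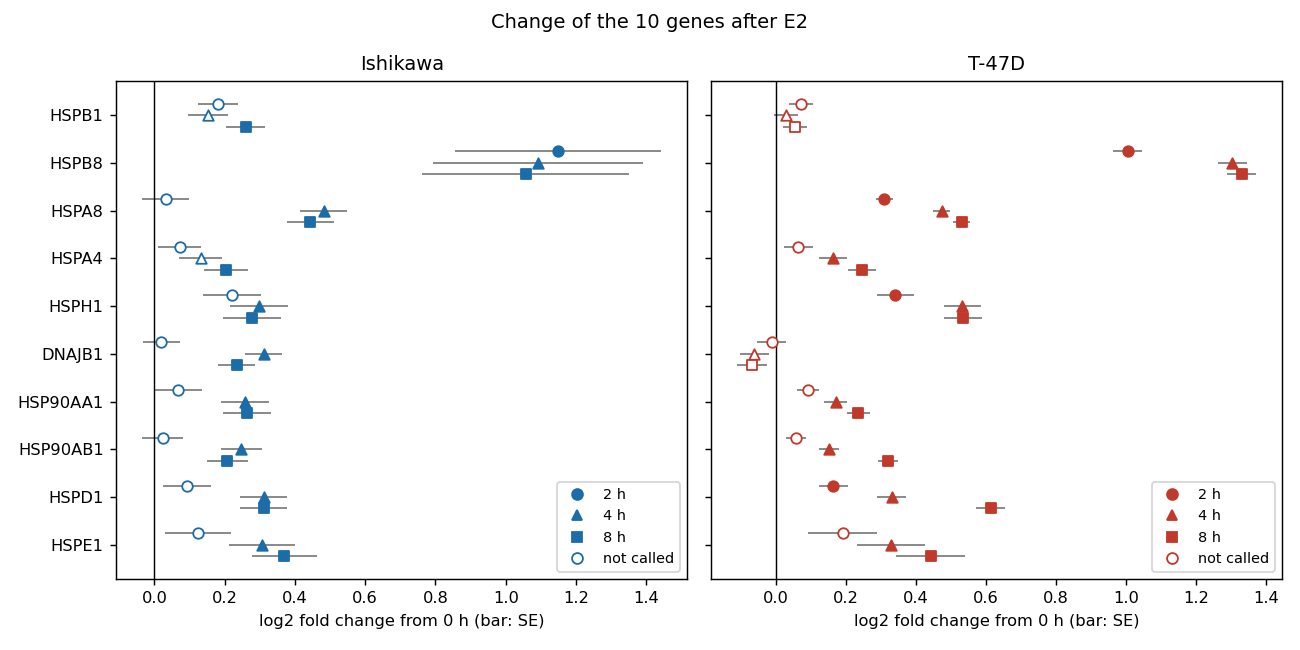
Log2 fold change from 0 h of the 10 genes at 2 h (circles), 4 h (triangles) and 8 h (squares) in Ishikawa (left) and T-47D cells (right), with bars of 1 SE and filled symbols where the adjusted p was under 0.05. HSPB8 stands apart at 1.00 to 1.33 in both lines, and the other filled symbols lie between 0.15 and 0.61.

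HSPB8 had the largest log2 fold change of the 10 in both lines at all 3 times. The gene lies on chromosome 12 from 119609360 to 119662660 of hg19, with 3 exons in its canonical transcript. Its T-47D libraries read 140 and 140 CPM at 0 h, 280 and 283 after 2 h, 335 and 357 after 4 h, and 352 and 350 after 8 h. All 6 treated libraries were above the untreated pair, and the 4 and 8 h libraries above those of 2 h. The log2 fold change was 1.00 (SE 0.04, adjusted p = 1.05e-11) at 2 h, 1.30 at 4 h and 1.33 (SE 0.04, adjusted p = 1.43e-13) at 8 h. In Ishikawa cells the gene was scarce, at 1.53 and 1.21 CPM at 0 h, 2.83 and 3.21 after 2 h, 1.97 and 3.83 after 4 h, and 3.36 and 2.33 after 8 h, from 58 to 201 counts per library. The treated libraries did not overlap the untreated ones but spread widely at 4 h. Its log2 fold change there was 1.15 (SE 0.29, adjusted p = 0.0378) at 2 h, 1.09 (SE 0.30) at 4 h and 1.06 (SE 0.29) at 8 h. The 2 h call was lost without either library of 0 h or of 2 h, the 4 h call without either 0 h library or 4 h replicate 2, which moved the value to 0.52, and the 8 h call without 0 h replicate 2 or 8 h replicate 1, with 0.77 as the lowest value. The response of HSPB8 did not pass a test of the difference between the lines at any time, with an interaction of 0.25 (SE 0.26, adjusted p = 0.632) at 8 h.

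HSPB1, on chromosome 7 from 75931990 to 75933612, is the other small heat shock protein of the list. It read 147 and 147 CPM at 0 h in Ishikawa cells, 166 and 165 after 2 h, 158 and 167 after 4 h, and 181 and 172 after 8 h. Every treated library was above both untreated ones, yet only the 8 h change passed, with a log2 fold change of 0.26 (SE 0.06, adjusted p = 0.00464). DESeq2 also called the 2 h change (0.18, adjusted p = 0.0489), and the 4 and 8 h libraries taken as 1 group passed together (0.21, adjusted p = 0.00905). T-47D cells had 1939 and 2002 CPM at 0 h, 2015 and 2148 after 2 h, 1984 and 2052 after 4 h, and 2077 and 2011 after 8 h, so the 4 h libraries overlapped those of 0 h and the others lay just above them. The 8 h value there was 0.05 (SE 0.03, adjusted p = 0.279). The difference between the lines at 8 h, T-47D minus Ishikawa, was -0.21 (SE 0.06, adjusted p = 0.0437), a call lost in 10 of the 16 fits that left out 1 library. The libraries left out there were Ishikawa 0 h replicate 2, 2 h replicate 2 or 8 h replicate 1 and every T-47D library but 4 h replicate 1. Over all 16 fits the values ranged from -0.27 to -0.19.

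HSPA8 encodes the constitutive cytosolic HSP70, which folds new proteins and uncoats clathrin vesicles, and lies on chromosome 11 from 122928197 to 122933938. T-47D cells had 4074 and 4103 CPM of it at 0 h, 5095 and 5095 after 2 h, 5589 and 5801 after 4 h, and 5849 and 5958 after 8 h. No 2 time points overlapped, and in a library of 4 h and another of 8 h it was the gene with the most counts of all. The log2 fold change was 0.31 (SE 0.02, adjusted p = 8.09e-08) at 2 h and 0.53 (SE 0.03, adjusted p = 3.24e-11) at 8 h. Ishikawa libraries read 2087 and 1974 CPM at 0 h, 2142 and 1985 after 2 h, 3049 and 2598 after 4 h, and 2682 and 2852 after 8 h. There the 2 h libraries overlapped those of 0 h, and all 4 later ones were higher. The changes at 2, 4 and 8 h were 0.03 (SE 0.07, adjusted p = 0.855), 0.48 (SE 0.07, adjusted p = 0.000171) and 0.44 (SE 0.07), and the later ones kept their calls with any library left out. The 2 h difference between the lines was 0.29 (SE 0.08, adjusted p = 0.0573), the closest to the threshold of the 10 genes. It passed without a filter, with at least 10 counts in every library, with counts divided by 2, and without Ishikawa 0 h replicate 2 or either Ishikawa 4 h library.

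The HSP110 genes, which reset the HSP70 cycle, differed in how early they responded. HSPH1, on chromosome 13 from 31709110 to 31736525, read 115 and 123 CPM at 0 h in T-47D cells, 150 and 153 after 2 h, 174 and 173 after 4 h, and 163 and 182 after 8 h. All treated libraries were above the untreated ones, and the log2 fold change was 0.34 (SE 0.05, adjusted p = 0.000262) at 2 h and 0.53 (SE 0.05) at 4 and at 8 h. Its Ishikawa levels were 36.0 and 34.4 CPM at 0 h and 39.5 to 46.5 CPM later. The changes of 0.30 (SE 0.08, adjusted p = 0.026) at 4 h and 0.28 (SE 0.08, adjusted p = 0.0245) at 8 h passed, and were lost without 0 h replicate 2, 4 h replicate 2 (at 4 h) or either 8 h library (at 8 h), where the lowest values were 0.17 and 0.25. HSPA4, on chromosome 5 from 132387705 to 132442141, stood at 254 to 258 CPM in untreated T-47D cells and at 297 and 309 at 8 h. It did not pass at 2 h and rose by 0.16 (SE 0.04, adjusted p = 0.00801) at 4 h and 0.25 (SE 0.04, adjusted p = 0.000157) at 8 h, the 4 h call being lost without T-47D 4 h replicate 1 (0.15). Untreated Ishikawa libraries held 280 and 258 CPM of HSPA4, and the 4 h libraries 305 and 282 CPM, so that the lower 4 h library lay just above the higher untreated one. The gene passed at 8 h alone (0.20, SE 0.06, adjusted p = 0.0269), a call lost without 0 h replicate 2, 8 h replicate 2 or either 2 h library, with 0.14 as the lowest value, and with only the time points compared (adjusted p = 0.0621). The 4 and 8 h libraries taken as 1 group passed (0.17, adjusted p = 0.0301).

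DNAJB1 was the gene whose response differed most clearly between the lines. It encodes an inducible HSP40, a J-domain partner of HSP70, on chromosome 19 from 14625581 to 14671203. Ishikawa levels were 218 and 216 CPM at 0 h, 221 and 216 after 2 h, 276 and 260 after 4 h, and 257 and 255 after 8 h. The libraries of 0 and 2 h overlapped, and those of 4 and 8 h were all above them. T-47D levels were 202 and 205 CPM at 0 h, 204 and 202 after 2 h, 199 and 192 after 4 h, and 196 and 192 after 8 h, with the 4 later libraries just below the untreated ones. DNAJB1 rose in Ishikawa cells by 0.31 (SE 0.05, adjusted p = 0.00095) at 4 h and 0.23 (SE 0.05, adjusted p = 0.00549) at 8 h, and had values of -0.06 (SE 0.04, adjusted p = 0.332) and -0.07 (SE 0.04, adjusted p = 0.243) in T-47D cells. The difference itself, T-47D minus Ishikawa, was -0.36 (SE 0.06, adjusted p = 0.000985) at 4 h and -0.31 (SE 0.06, adjusted p = 0.00317) at 8 h. Both calls held in all 16 fits that left out 1 library, where the values ranged from -0.41 to -0.34 at 4 h and from -0.34 to -0.29 at 8 h.

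Both HSP90 genes were called higher from 4 h on, by small amounts. HSP90AA1, the more inducible form, is on chromosome 14 from 102547079 to 102606036, and HSP90AB1, the constitutive form, on chromosome 6 from 44213903 to 44221625. HSP90AB1 in T-47D cells read 1905 and 1892 CPM at 0 h, 1984 and 1986 after 2 h, 2087 and 2146 after 4 h, and 2393 and 2349 after 8 h. No time points overlapped, and the log2 fold change was 0.15 (SE 0.03, adjusted p = 0.000705) at 4 h and 0.32 (SE 0.03, adjusted p = 9.92e-08) at 8 h. HSP90AA1 in the same cells read 2834 and 2766 CPM at 0 h, 2989 and 3007 after 2 h, 3198 and 3126 after 4 h, and 3176 and 3415 after 8 h. The libraries of 4 and 8 h overlapped each other and lay above the earlier ones, with a change of 0.17 (SE 0.03) at 4 h and 0.24 (SE 0.03, adjusted p = 2.2e-05) at 8 h. Its 2 h value of 0.09 missed the threshold (adjusted p = 0.0918) and passed without T-47D 0 h replicate 1 or either 8 h library, without a filter (0.10, adjusted p = 0.0112) and with only the time points compared (0.10, adjusted p = 0.0267). In Ishikawa libraries HSP90AB1 was at 2492 to 2586 CPM up to 2 h and at 2800 to 3196 CPM later, and HSP90AA1 at 1548 to 1803 and 1862 to 2129 CPM. Changes of 0.25 (adjusted p = 0.0103) for HSP90AB1 and 0.26 (adjusted p = 0.0196) for HSP90AA1 at 4 h passed, as did those of 0.21 and 0.26 at 8 h. All of these were lost without Ishikawa 0 h replicate 2, the 4 h calls also without 4 h replicate 1 and the 8 h calls without 8 h replicate 2. The lowest values with 1 library left out were 0.15 and 0.14 for HSP90AB1 and 0.16 and 0.16 for HSP90AA1 at 4 and 8 h.

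The mitochondrial pair sits head to head on chromosome 2, HSPD1 on the minus strand from 198351308 to 198381461 and HSPE1 on the plus strand from 198364864 to 198368173, with canonical starts 539 bases apart. HSPD1 encodes HSP60, whose rings enclose the client, and HSPE1 encodes HSP10, the lid. T-47D libraries read 299 and 284 CPM of HSPD1 at 0 h, 333 and 324 after 2 h, 375 and 360 after 4 h, and 437 and 455 after 8 h. Each time point lay above the one before, and the log2 fold change went from 0.16 (SE 0.04, adjusted p = 0.0171) at 2 h to 0.33 (SE 0.04) at 4 h and 0.61 (SE 0.04, adjusted p = 4.81e-09) at 8 h. The 2 h call was lost without T-47D 0 h replicate 2 or either 2 h library. Over all fits with 1 library left out the value ranged from 0.14 to 0.21. Ishikawa libraries read 588 and 558 CPM of HSPD1 at 0 h, 609 and 605 after 2 h, 763 and 652 after 4 h, and 679 and 744 after 8 h. The later libraries overlapped each other, and the change was 0.31 at both 4 h (SE 0.07, adjusted p = 0.00642) and 8 h (SE 0.07, adjusted p = 0.0047). Both were lost without 0 h replicate 2, and each without 1 of its own libraries, 4 h replicate 1 or 8 h replicate 2, with 0.20 and 0.23 as the lowest values. At 8 h the rise of HSPD1 was larger in T-47D than in Ishikawa cells by 0.30 (SE 0.09, adjusted p = 0.0318), a call lost with RLE scaling (0.27, adjusted p = 0.0607). It was also lost in 8 of the 16 fits with 1 library left out. These were without Ishikawa 0 h replicate 1, either Ishikawa 2 h library or Ishikawa 8 h replicate 1, and without T-47D 0 h replicate 2, T-47D 4 h replicate 1 or either T-47D 8 h library. Over all 16 fits the values ranged from 0.20 to 0.34.

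HSPE1 moved with smaller counts. Its T-47D libraries read 12.1 and 10.9 CPM at 0 h, 12.7 and 13.6 after 2 h, 14.0 and 14.9 after 4 h, and 14.5 and 16.7 after 8 h, from 440 to 878 counts. Treated libraries were all above the untreated ones, and the change was 0.33 (SE 0.10, adjusted p = 0.0227) at 4 h and 0.44 (SE 0.10, adjusted p = 0.00215) at 8 h, the 4 h call being lost without T-47D 0 h replicate 2 or either 4 h library (lowest value 0.26). Ishikawa libraries read 35.4 and 29.6 CPM at 0 h, 36.0 and 34.4 after 2 h, 43.2 and 36.7 after 4 h, and 40.7 and 43.5 after 8 h. The 2 h libraries overlapped those of 0 h and the later ones did not, with changes of 0.31 (SE 0.09, adjusted p = 0.0413) at 4 h and 0.37 (SE 0.09, adjusted p = 0.0105) at 8 h. Both were lost without 0 h replicate 2, the 4 h call also without 4 h replicate 1 or either 2 h library and with only the time points compared (adjusted p = 0.0516), and the 8 h call without 8 h replicate 2, with 0.19 and 0.25 as the lowest values. HSPE1 levels carry a further limit, since 34.5% of its canonical transcript (192 bases) is shared with exons of the read-through gene HSPE1-MOB4 on the same strand. HSPE1-MOB4 was listed at 0 in all 16 libraries and MOB4, the other gene of the read-through, had 0 to 4 counts, and how reads in shared exons were counted is not given in the sources used here. RefSeq also names 28 pseudogenes after HSPE1, 22 after HSPD1 and 20 after HSPA8, none of them in the tables. It names 6 after HSP90AB1, of which 1 is in the tables. A further 5 are named after HSP90AA1 and 2 each after HSPB1 and DNAJB1, with 0 in the tables. Reads shared with such copies make the levels of these genes uncertain.

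Within T-47D cells the rise went on after 2 h. Against 2 h, 7 of the 10 genes were higher at 8 h (9.53% of all genes tested), led by HSPD1 at 0.45 (SE 0.04, adjusted p = 8.49e-07). HSPB8 (0.33), HSP90AB1 (0.26), HSPA8 (0.22), HSPH1 (0.19), HSPA4 (0.18) and HSP90AA1 (0.14) were the others. Fewer of the 10, and of all genes tested, were called without T-47D 2 h replicate 1, where the median of the 10 was 0.19. The same comparison in Ishikawa cells called HSPA8 (0.41, SE 0.07, adjusted p = 0.00352) and DNAJB1 (0.21, SE 0.05, adjusted p = 0.046), against 1.06% of all genes tested. DNAJB1 lost that call without any 1 library of 2 or 8 h, and HSPA8 lost it without 2 h replicate 2. More of the 10, and of all genes tested, were called without either 4 h library. Tested directly, the response differed between the lines for none of the 10 genes at 2 h, for DNAJB1 at 4 h and for DNAJB1, HSPB1 and HSPD1 at 8 h, against 2.67%, 6.03% and 10% of the 17090 genes. At 2 h HSPA8 was the 1 gene with an unadjusted p under 0.05, and DESeq2 also called 0 of the 10, beside 577 of all 17090 genes. More of the 10 were called at 4 h without Ishikawa 4 h replicate 2. Fewer were called at 8 h without Ishikawa 2 h replicate 2, Ishikawa 8 h replicate 1, T-47D 0 h replicate 2 or either T-47D 8 h library. In each of these fits the number called over all genes moved the same way.

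The genes around the 10 were read from a list of 61 others, grouped by role, of which 57 were tested in each line. At 8 h, 27 of them rose and 3 fell in Ishikawa cells, against 12% and 10.1% of all genes tested, and 28 rose and 3 fell in T-47D cells, against 15.4% and 14.3%, with medians of 0.20 and 0.21. The TRiC chaperonin, the cytosolic counterpart of HSPD1 that folds actin and tubulin, was called higher for 6 of 8 subunit genes in Ishikawa and 8 of 8 in T-47D cells, as in CCT6A at 0.48 (SE 0.04, adjusted p = 6.46e-08) and CCT5 at 0.42 (SE 0.04) in T-47D cells. Of 9 other mitochondrial chaperone and protease genes, 4 and 6 rose, including TRAP1, a mitochondrial HSP90, at 0.43 (SE 0.05) and HSPA9, the mitochondrial HSP70, at 0.31 (SE 0.04) in T-47D cells.

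HSP90 cochaperones rose at 8 h for 6 of 9 genes in Ishikawa and 4 of 9 in T-47D cells. The shares of all genes tested, for this role and the HSP70 roles below, were 12% and 15.4%. FKBP4, an immunophilin of steroid receptor complexes, went from 503 ± 8.80 CPM to 1245 ± 10.0 CPM at 8 h in T-47D cells (1.31, SE 0.03, adjusted p = 1.07e-14), and AHSA1, an activator of the HSP90 ATPase, rose by 0.36 (SE 0.04). Other HSP70 family genes rose for 4 of 8 and 6 of 7, as in HSPA13, a microsomal member (0.62, SE 0.07), and HSPA1A, the stress-inducible form (0.34, SE 0.05), in T-47D cells, where HSPA1A shares near-identical sequence with HSPA1B. HSP70 cofactors rose for 4 of 8 and 3 of 8. BAG3, the partner of HSPB8, went from 79.9 ± 1.39 to 229 ± 2.17 CPM at 2 h in Ishikawa cells (1.53, SE 0.05, adjusted p = 6.73e-11), and BAG1 rose by 0.34 (SE 0.05) at 8 h in T-47D cells.

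J-domain genes other than DNAJB1 rose at 8 h for 3 of 9 and fell for 2 of 9 in Ishikawa cells, against 12% and 10.1% of all genes tested. In T-47D cells 1 of 9 rose and 2 fell, against 15.4% and 14.3%. There DNAJA1 rose by 0.38 (SE 0.04) and DNAJB2 had -0.40 (SE 0.05, adjusted p = 2.45e-06). Among the other small heat shock proteins CRYAB, the alpha B crystallin of the eye lens, had -0.69 (SE 0.09, adjusted p = 1.94e-05) in T-47D cells at 8 h. HSPB11, grouped with them by name, had passed there at 4 h with -0.25 (SE 0.07). HSF1, the main heat shock factor, did not pass in any comparison with 0 h, with -0.02 and 0.03 at 8 h. HSF4 fell in Ishikawa cells from 4.60 ± 1.74 CPM, with -1.37 (SE 0.28, adjusted p = 0.00282) at 8 h, and HSF2 passed in T-47D cells at 4 h with 0.30 (SE 0.09, adjusted p = 0.023).

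**Figure D4:**
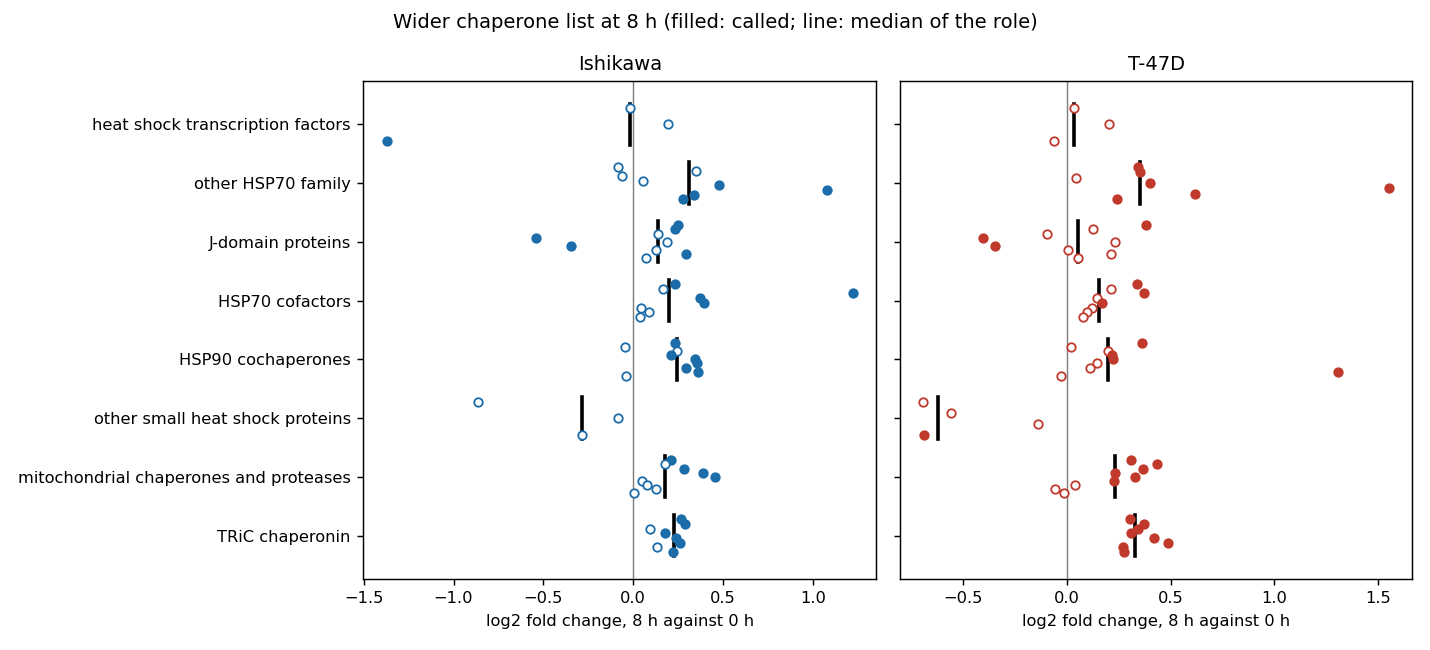
Log2 fold change at 8 h against 0 h of the tested genes of the wider list, by role, with 1 circle per gene, filled where the adjusted p was under 0.05, and a line at the median of the role, in Ishikawa (left) and T-47D cells (right). All 8 TRiC genes are filled to the right of 0 in T-47D cells, BAG3 lies at 1.22 in Ishikawa and FKBP4 at 1.31 in T-47D cells, and the filled circles to the left of 0 are DNAJB2 and DNAJB5 in both lines, HSF4 in Ishikawa and CRYAB in T-47D cells.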

How the data were processed

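Bulk RNA-seq of Ishikawa and T-47D cells was analysed from the tables the authors deposited. The authors used HISAT2 for alignment to hg19, SAMtools for format conversion, featureCounts with UCSC Known Genes for assignment and DESeq2 for testing, and the deposited values are raw counts per gene. Versions, the strand setting and the treatment of reads with several alignments are not given in the sources used here. Samples were grouped by the line and time of their labels, and every column was used. From these, edgeR 4.0.16 in R 4.3.3 was run with filterByExpr, TMM scaling, 1 quasi-likelihood fit per line with time as a factor of 4 levels, and a joint fit of 16 libraries for the interaction of line and time and for 0 h. A gene was called at a Benjamini-Hochberg adjusted p under 0.05 over all genes tested, 15787 in Ishikawa, 15594 in T-47D and 17090 in the joint fit. Standard errors are the log2 fold change over the square root of its F statistic. No replicate pair was identical (chi-square per gene 3.60 to 10.8). The fits were run on counts simulated from their own fitted means and dispersions, which checks the code but cannot show batch or label problems in these libraries.

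The 10 genes and the lists were chosen with earlier results of these data known. Named genes are all 10, the 2 of lowest adjusted p per role of the wider list and mean counts of 50 or more, and, per line, the 3 most like HSPD1 and HSPE1. Alternatives were DESeq2 1.42.0, thresholds of 0.01 and 0.1, RLE scaling, a filter of 10 counts per library or none, a replicate block, counts divided by 2, scaling without the 10 genes, only the time points compared, 4 and 8 h libraries as 1 group, and each library left out in turn, where a lone replicate is assumed to vary like the others. Positions and lengths are from GENCODE on GRCh37, promoters from RefSeq on GRCh38.p14.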

Additional observations from a re-analysis of the deposited data

Results flagged for a closer look

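The response to E2 of 3 of the 10 genes differed between the lines by the interaction of line and time (quasi-likelihood test of edgeR, Benjamini-Hochberg adjusted, T-47D minus Ishikawa). The calls were 1 gene at 4 h and 3 at 8 h, against 6.03% and 10% of the 17090 genes tested. DNAJB1 had -0.36 on the log2 scale at 4 h (adjusted p = 0.000985) and -0.31 at 8 h (adjusted p = 0.00317), with 4 of 4 Ishikawa libraries of 4 and 8 h above both 0 h libraries and 4 of 4 T-47D libraries below theirs. HSPD1 had 0.30 at 8 h (adjusted p = 0.0318), with 2 of 2 libraries above 0 h in each line. HSPB1 had -0.21 at 8 h (adjusted p = 0.0437), also with 2 of 2 libraries above 0 h in each line. The HSPD1 and HSPB1 calls were lost in many fits that left out 1 library, as given above, while those of DNAJB1 held. Values in these fits ranged from 0.20 to 0.34 for HSPD1 and from -0.27 to -0.19 for HSPB1. Time points of a line share their 0 h libraries, so the DNAJB1 values at 4 and 8 h are not independent.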

How the results depend on the processing

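DNAJB1 kept its interaction call at 4 and 8 h under every alternative run, and HSPB8, HSPA8, HSPH1, HSP90AA1, HSP90AB1 and HSPD1 kept their T-47D calls at 4 and 8 h. At an adjusted p under 0.01 the genes called numbered 0, 3 and 4 at 2, 4 and 8 h and 1 for 8 h against 2 h in Ishikawa cells, and 1 for the interaction at 8 h. At an adjusted p under 0.1, 2 were called at 2 h in Ishikawa cells and 1 for the interaction at 2 h, beside 1024 of 15787 and 583 of 17090 genes. DESeq2 called 2 at 2 h in Ishikawa cells, beside 836 of 15787 genes. The interaction at 2 h called 1 without a filter, with at least 10 counts and with counts divided by 2. Over all genes these fits called 683 of 22220, 453 of 12995 and 435 of 15954. For 8 h against 2 h in Ishikawa cells, the count was 5 without a filter, 5 with only the time points compared, and 4 with 4 and 8 h libraries as 1 group. Calls over all genes rose as well, from 353 of 15787 to 1070 of 20903, 804 of 15583 and 764 of 15787. Only the time points compared ended the calls of HSPE1 at 4 h and HSPA4 at 8 h in Ishikawa cells and called HSP90AA1 at 2 h in T-47D cells, as did no filter. With 4 and 8 h libraries as 1 group, HSPA4 and HSPB1 also passed at 4 h, which made 10 of 10, beside 4055 of all 15787 genes. Same-numbered replicates did not deviate together over all genes (r of -0.11 to 0.05 in Ishikawa and -0.05 to 0.06 in T-47D cells). Whether they were handled together is not stated in the labels, and these values cannot tell. With the replicate block the count was 0 at 2 h (HSPB8, adjusted p = 0.0507) and 1 for 8 h against 2 h in Ishikawa cells, and every other count was as without it. Those 2 fits called 606 and 298 of all 15787 genes.

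With each library left out in turn, Ishikawa counts ranged from 0 to 1 at 2 h, 2 to 8 at 4 h, 3 to 10 at 8 h and 0 to 4 for 8 h against 2 h, and T-47D counts from 4 to 7 for 8 h against 2 h. Interaction counts ranged from 0 to 1 at 2 h, 1 to 3 at 4 h and 1 to 3 at 8 h. Changes of sign arose only in values that had not passed. At 2 h in Ishikawa cells DNAJB1 ranged from -0.000969 to 0.0434, HSP90AA1 from -0.0330 to 0.178 and HSPA8 from -0.0293 to 0.0938. DNAJB1 at 2 h in T-47D cells ranged from -0.0165 to 0.0127, HSPA4 between the lines at 0 h from -0.129 to 0.00369, HSPB1 at 8 h against 2 h in T-47D cells from -0.0672 to 0.0248, and HSPB8 at 8 h against 2 h in Ishikawa cells from -0.373 to 0.133. Counts were few for HSPB8 in Ishikawa cells and for HSPE1, and 2 replicates per time point limit every value.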

Other observations

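The genes whose pattern was most like the mean log2 CPM of HSPD1 and HSPE1 over the 8 libraries of a line were ranked by Pearson's r, as a description of libraries that share time, depth and scaling. In Ishikawa cells they were TCP1, a TRiC subunit (r = 0.99), HSPA5, the HSP70 of the endoplasmic reticulum (0.99), and CUL1, a ubiquitin ligase scaffold (0.99), with 589 of 15785 genes over 0.9. In T-47D cells they were SEMA3C, a secreted semaphorin, SERBP1, an RNA-binding protein, and CCT6A, a TRiC subunit (each 0.99), with 746 of 15592 genes over 0.9. SEMA3C rose by 0.86 (SE 0.04) in T-47D cells at 8 h, had -0.48 (SE 0.11) in Ishikawa cells, and differed between the lines by 1.34 (SE 0.14, edgeR adjusted p = 1.09e-06). HSPA5 had 0.19 (SE 0.06, adjusted p = 0.0298) in Ishikawa and -0.01 (SE 0.03, adjusted p = 0.774) in T-47D cells at 8 h, a difference that did not pass (adjusted p = 0.0771).

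Of the 58 genes of the wider list tested for a difference between the lines at 8 h, 4 had a higher and 1 a lower response in T-47D cells. This is near the share of 10% of all 17090 genes. Among them were 1 of 8 HSP70 cofactors, 1 of 9 HSP90 cochaperones, 2 of 8 TRiC genes and 1 of 3 heat shock factors. BAG3, the cofactor, rose at 8 h in Ishikawa and T-47D cells by 1.22 (SE 0.05) and 0.37 (SE 0.05), a difference of -0.85 (SE 0.07, adjusted p = 4.08e-08). FKBP4, the cochaperone, rose by 0.36 (SE 0.06) and 1.31 (SE 0.03), a difference of 0.94 (SE 0.07, adjusted p = 1.11e-08).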
